A study of Mus musculus with 15 samples.

Results

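The genes described here encode matrix glycoproteins of the neural stem cell niche and 1 receptor of matrix proteins: Tnc, Fn1, Sparc, Sparcl1, Vcan, Ncan, Bcan and Dag1. They were taken by gene symbol, with every probe set (a group of short probes for 1 transcript) that the platform annotation gives to the gene alone. That left 8 of 12393 measured genes and 16 of 22626 probe sets. Tnc, Sparcl1 and Bcan had 1 probe set each, Fn1, Sparc and Ncan 2, Vcan 3 and Dag1 4. Probe sets of 1 gene share its transcripts and are not replicates. The genes were selected on measured values, with earlier results of these arrays known. Those results had named Tnc for its difference between RNA fractions in control cultures, Tnc and Fn1 for their response on polysomes, and Tnc, Fn1 and Sparc for the difference between their responses in polysomal and total RNA. These 3 comparisons are therefore given as descriptions without a p-value. The comparisons given with p-values can be computed from these 3. The fraction difference in CD95L-T4 cultures equals that in control cultures plus the difference between the responses. The response in total RNA equals that on polysomes minus the same difference. The p-values given are thus no independent test of the selected genes.

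Primary neural stem cells of female mice of strain C57/B16, aged 6 weeks, were grown as neurospheres, which are free-floating clusters of cells. Cultures were stimulated for 48 h with CD95L-T4, a trimerised ligand of the death receptor CD95 (Fas), or served as controls. Whole-cell RNA (total RNA) and RNA bound by ribosomes (polysomal RNA) were hybridised to Affymetrix arrays. CD95L-T4 cultures gave 3 polysomal and 4 total RNA arrays, and control cultures gave 4 of each, every replicate being called biological in its title. The labels name no separate culture or animal for a replicate, so p-values cover the spread between these samples only.

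Tenascin C (Tnc) and fibronectin (Fn1) are large secreted glycoproteins that cells bind through integrins, and tenascin C is a known component of the stem cell niche of the adult brain. Sparc and its relative Sparcl1 (hevin) are matricellular proteins, which are secreted and modulate adhesion without building fibres. Versican (Vcan), neurocan (Ncan) and brevican (Bcan) are lecticans, chondroitin sulfate proteoglycans that bind hyaluronan at the amino-terminal end and tenascins at the carboxy-terminal end. Dystroglycan (Dag1) is made as a precursor that is cleaved into an outer subunit, which binds laminin and agrin, and a subunit that crosses the membrane. All of these proteins enter the secretory pathway through the endoplasmic reticulum.

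The promoter windows of 1 gene per role are shown because genes of all these roles were lower in 1 RNA fraction. No value of these arrays measures promoter activity. The windows run from 250 bases before to 50 bases after a transcript start, are RefSeq sequences of build GRCm38.p6 and were found for 6 of the 8 genes. They are written 5′ to 3′ on the minus strand of chr4:64046966-64047265, chr11:55420031-55420330, chr3:88000307-88000606 and chr9:108263909-108264208. Capitals mark any match, on either strand, to TATAAA (the TATA box), to CCAAT (bound by NF-Y), to GGGCGG (a GC box) or to TGAGTCA (bound by AP-1), and no match overlaps another.
Tnc: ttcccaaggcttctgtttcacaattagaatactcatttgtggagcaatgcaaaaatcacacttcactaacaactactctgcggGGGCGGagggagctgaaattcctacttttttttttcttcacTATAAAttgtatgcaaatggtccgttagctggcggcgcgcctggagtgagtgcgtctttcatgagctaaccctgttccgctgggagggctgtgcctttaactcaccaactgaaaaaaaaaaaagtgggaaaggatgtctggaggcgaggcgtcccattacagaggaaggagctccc
Sparc: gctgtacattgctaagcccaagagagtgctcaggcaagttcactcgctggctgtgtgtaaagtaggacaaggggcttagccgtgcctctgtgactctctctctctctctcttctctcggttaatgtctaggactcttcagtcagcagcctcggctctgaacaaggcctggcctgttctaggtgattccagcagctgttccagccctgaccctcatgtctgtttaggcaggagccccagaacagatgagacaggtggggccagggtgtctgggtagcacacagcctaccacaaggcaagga
Bcan: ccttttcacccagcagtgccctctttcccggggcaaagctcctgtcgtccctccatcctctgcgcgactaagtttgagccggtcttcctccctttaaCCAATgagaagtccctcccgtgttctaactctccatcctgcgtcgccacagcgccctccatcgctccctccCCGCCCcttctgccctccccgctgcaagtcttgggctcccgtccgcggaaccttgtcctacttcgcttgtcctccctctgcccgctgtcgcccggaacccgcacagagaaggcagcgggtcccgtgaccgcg
Dag1: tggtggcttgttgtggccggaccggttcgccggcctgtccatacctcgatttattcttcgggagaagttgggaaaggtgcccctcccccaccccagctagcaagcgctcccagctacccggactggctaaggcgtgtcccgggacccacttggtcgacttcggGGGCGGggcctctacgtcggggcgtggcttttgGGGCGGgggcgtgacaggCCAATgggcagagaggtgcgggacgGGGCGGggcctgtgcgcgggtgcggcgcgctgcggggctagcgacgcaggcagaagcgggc
The Tnc window held 1 TATAAA and 1 GGGCGG, whereas the Bcan window held 1 CCAAT and 1 GGGCGG. The Dag1 window held 3 GGGCGG and 1 CCAAT. The Sparc window held 0 of the 4 motifs, which says only that these letters are not in this window. Of 32851 such windows, 13.6% held the TATA box, 37.4% the NF-Y motif, 35.7% the GC box and 5.2% the AP-1 motif.

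Arrays of 1 group correlated at 0.994 to 0.998 over all probe sets, and arrays of different fractions at 0.968 to 0.978. CD95L-T4 polysomal replicate 2 stood apart in its added poly-A control transcripts, at 9.10 in log2 against 7.60 and 7.72 in replicates 1 and 3. Control polysomal arrays lay between 7.83 and 8.35, CD95L-T4 total arrays between 6.92 and 7.95 and control total arrays between 6.93 and 7.50. The actin control signal at the 3′ end minus that at the 5′ end also differed between fractions. It was 0.59 to 1.03 in CD95L-T4 and 0.74 to 0.81 in control polysomal arrays. Total arrays had 0.32 to 0.46 in CD95L-T4 and 0.28 to 0.57 in control cultures. A position between the fractions was computed for each array over all probe sets other than those of the 8 genes, with 0 at the mean of the total arrays and 1 at the mean of the polysomal arrays. It was 0.901, 1.03 and 0.958 in CD95L-T4 polysomal replicates 1, 2 and 3, against 0.987 to 1.07 in control polysomal arrays. Of 10 stem cell markers 9 were measured, and in total RNA Sox2 averaged 11.515 in CD95L-T4 and 11.69 in control cultures, Nes 11.105 and 11.09, and Fabp7 13.815 and 13.84 in log2. Prom1 averaged 3.865 in CD95L-T4 and 3.775 in control total arrays. The mean over the astrocyte markers was 6.93 to 7.01 in CD95L-T4 and 6.96 to 6.99 in control total arrays, that over the oligodendrocyte lineage markers 7.51 to 7.73 and 7.52 to 7.60, and that over the microglial markers 3.99 to 4.20 and 4.05 to 4.22. Levels of different probe sets cannot be set against each other, so these values do not settle the cell label.

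In CD95L-T4 cultures, each of the 8 genes had at least 1 probe set that was lower on polysomes, and 7 genes had no other kind. limma called 15 of the 16 probe sets lower and 0 higher at an adjusted p under 0.05, where 24.6% of all probe sets were called lower and 26.7% higher (51.3% in either direction). The genes were selected with earlier results of these arrays known, so this count is not an independent test. The median log2 difference, polysomal minus total, was -1.26 over the 16 probe sets and 0.04 over all probe sets. Of all probe sets, 3.14% had a more negative difference than that median. Values are log2 expression normalised between arrays, so a difference is relative to the other transcripts of the array. In such bulk samples, fewer cells of a type and less RNA per cell cannot be told apart. The fractions also differed in extraction method, in the RNA type given in the labels and in the actin control signal given above. These cannot be told apart from the fraction.

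Tnc showed the largest difference between fractions among the 8 genes. It had log2 values of 9.66, 8.90 and 9.37 in CD95L-T4 polysomal arrays, against 11.72, 11.96, 11.87 and 12.04 in CD95L-T4 total arrays. In control cultures it had 8.94, 9.06, 8.86 and 8.89 in polysomal arrays, against 11.92, 11.77, 11.93 and 11.85 in total arrays. Every polysomal array was thus below every total array, and CD95L-T4 polysomal replicates 1 and 3 were above all control polysomal arrays whereas replicate 2 was not. The difference between fractions was -2.59 ± 0.13 (SE, n = 3 and 4) in CD95L-T4 cultures, 6.01-fold (limma, adjusted p = 2.55e-10). It was -2.93 ± 0.12 (SE, n = 4 and 4) in control cultures. In CD95L-T4 cultures, 0.119% of all probe sets had a difference as negative as that of Tnc.

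Fn1 was measured by 2 probe sets that were both lower on polysomes. The brighter of them (1426642_at) had 7.28, 6.97 and 6.93 in CD95L-T4 polysomal arrays, against 8.34, 8.65, 8.51 and 8.65 in CD95L-T4 total arrays. Its values in control cultures were 6.78, 6.86, 6.83 and 6.73 in polysomal arrays, against 8.69, 8.47, 8.54 and 8.52 in total arrays. The groups did not overlap between fractions, and all 3 CD95L-T4 polysomal arrays were above all 4 control polysomal arrays. The difference between fractions was -1.48 ± 0.10 in CD95L-T4 cultures, 2.78-fold (limma, adjusted p = 2.71e-09), and -1.755 ± 0.09 in control cultures. The second probe set (1437218_at), which lies among the dimmest 25% of probe sets, gave -0.91 ± 0.15 (limma, adjusted p = 6.07e-05) and -1.16 ± 0.14.

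**Figure D1:**
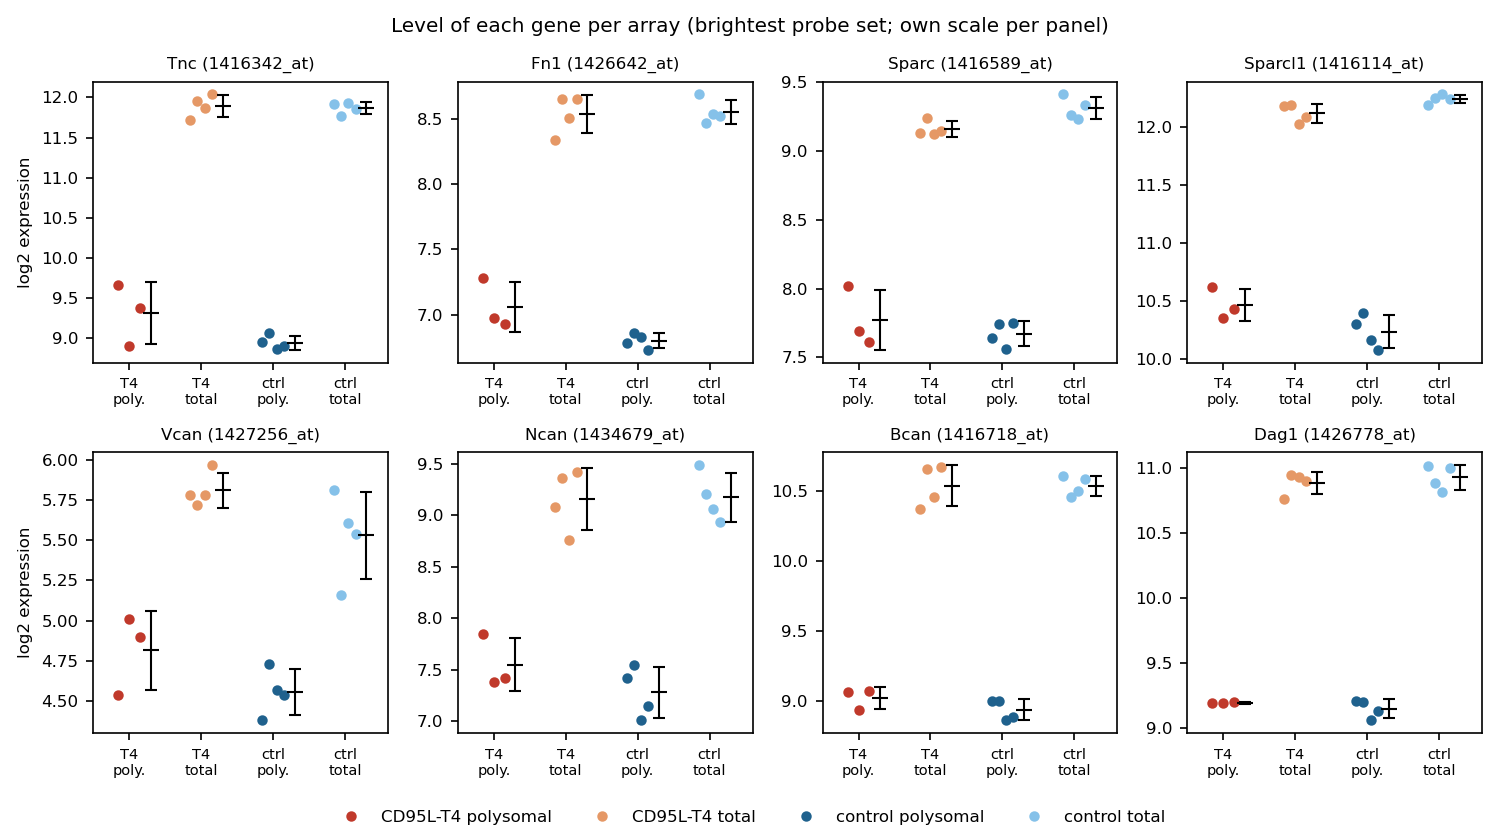
Log2 expression of the brightest probe set of each gene on each array (points), with the group mean and SD (bar), for CD95L-T4 polysomal (n = 3), CD95L-T4 total, control polysomal and control total arrays (n = 4 each). Each panel has its own scale. In each of the 8 panels the polysomal arrays lie below the total arrays of the same treatment.

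Both matricellular genes were lower on polysomes with every probe set. Sparcl1 had 10.62, 10.35 and 10.43 in CD95L-T4 polysomal arrays, against 12.18, 12.19, 12.02 and 12.08 in CD95L-T4 total arrays. Control cultures gave 10.30, 10.40, 10.16 and 10.08 in polysomal arrays, against 12.19, 12.25, 12.28 and 12.24 in total arrays. The fractions did not overlap in either treatment. The difference was -1.65 ± 0.09 in CD95L-T4 cultures, 3.14-fold (limma, adjusted p = 4.4e-10), and -2.005 ± 0.08 in control cultures. Sparc (1416589_at) had 8.02, 7.69 and 7.61 in CD95L-T4 polysomal arrays, against 9.13, 9.24, 9.12 and 9.14 in CD95L-T4 total arrays. In control cultures it had 7.64, 7.74, 7.56 and 7.75 in polysomal arrays, against 9.41, 9.26, 9.23 and 9.33 in total arrays. CD95L-T4 polysomal replicate 1 was the highest of the 7 polysomal arrays, and the other two lay within the control range. Its difference between fractions was -1.38 ± 0.09 (limma, adjusted p = 3e-09) in CD95L-T4 cultures and -1.635 ± 0.09 in control cultures. The other Sparc probe set (1448392_at) gave -1.12 ± 0.17 (limma, adjusted p = 3.14e-05) and -1.355 ± 0.16.

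Bcan, the lectican with a single probe set, had 9.06, 8.93 and 9.07 in CD95L-T4 polysomal arrays, against 10.37, 10.66, 10.46 and 10.67 in CD95L-T4 total arrays. Its values in control cultures were 9.00, 9.00, 8.86 and 8.88 in polysomal arrays, against 10.61, 10.46, 10.50 and 10.59 in total arrays. Within each fraction the 2 treatments overlapped. The difference between fractions was -1.52 ± 0.09 in CD95L-T4 cultures, 2.87-fold (limma, adjusted p = 6.53e-10), and -1.605 ± 0.08 in control cultures.

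Ncan was measured by 2 probe sets that differed in size. The brighter (1434679_at) had 7.85, 7.38 and 7.42 in CD95L-T4 polysomal arrays, against 9.08, 9.36, 8.76 and 9.42 in CD95L-T4 total arrays. Control cultures gave 7.42, 7.55, 7.01 and 7.15 in polysomal arrays, against 9.49, 9.21, 9.06 and 8.93 in total arrays. The fractions did not overlap, at a difference of -1.605 ± 0.17 in CD95L-T4 cultures (limma, adjusted p = 4.77e-07) and -1.89 ± 0.16 in control cultures. The dimmer probe set (1423604_at) had 4.85, 4.35 and 4.97 in CD95L-T4 polysomal arrays, against 5.32 to 5.63 in CD95L-T4 total arrays. Its difference was -0.76 ± 0.12 (limma, adjusted p = 5.11e-05) in CD95L-T4 cultures and -0.39 ± 0.12 in control cultures.

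Vcan, whose 3 probe sets lie among the dimmest 50% of probe sets, was called lower with 2 of them. Probe set 1427256_at had 4.54, 5.01 and 4.90 in CD95L-T4 polysomal arrays, against 5.78, 5.72, 5.78 and 5.97 in CD95L-T4 total arrays. In control cultures it had 4.38, 4.73, 4.57 and 4.54 in polysomal arrays, against 5.81, 5.16, 5.61 and 5.54 in total arrays. The fractions did not overlap, at -0.996 ± 0.14 (limma, adjusted p = 7.66e-06) in CD95L-T4 cultures and -0.975 ± 0.13 in control cultures. Probe set 1421694_a_at gave -0.47 ± 0.11 (limma, adjusted p = 0.0011) and -0.77 ± 0.10. The third, 1427257_at, had a difference of -0.05 ± 0.14 in CD95L-T4 cultures (limma, adjusted p = 0.787; 95% interval -0.36 to 0.25) and -0.05 ± 0.13 in control cultures, and its fractions overlapped. It was the only one of the 16 probe sets whose fractions overlapped in either treatment.

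Dag1, the receptor of the group, was lower on polysomes with each of its 4 probe sets. Probe set 1426778_at had 9.19, 9.19 and 9.20 in CD95L-T4 polysomal arrays, against 10.76, 10.94, 10.93 and 10.90 in CD95L-T4 total arrays. Its values in control cultures were 9.21, 9.20, 9.06 and 9.13 in polysomal arrays, against 11.01, 10.88, 10.81 and 11.00 in total arrays. The difference was -1.69 ± 0.08 in CD95L-T4 cultures, 3.22-fold (limma, adjusted p = 1.26e-10), and -1.775 ± 0.07 in control cultures. The other Dag1 probe sets lay between -1.27 and -1.16 in CD95L-T4 cultures (limma, adjusted p = 2.57e-08 to 1.68e-07) and between -1.60 and -1.30 in control cultures. Of these, 1426779_x_at and 1456131_x_at carry the suffix Affymetrix gives to sets with probes that may also bind other transcripts.

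**Figure D2:**
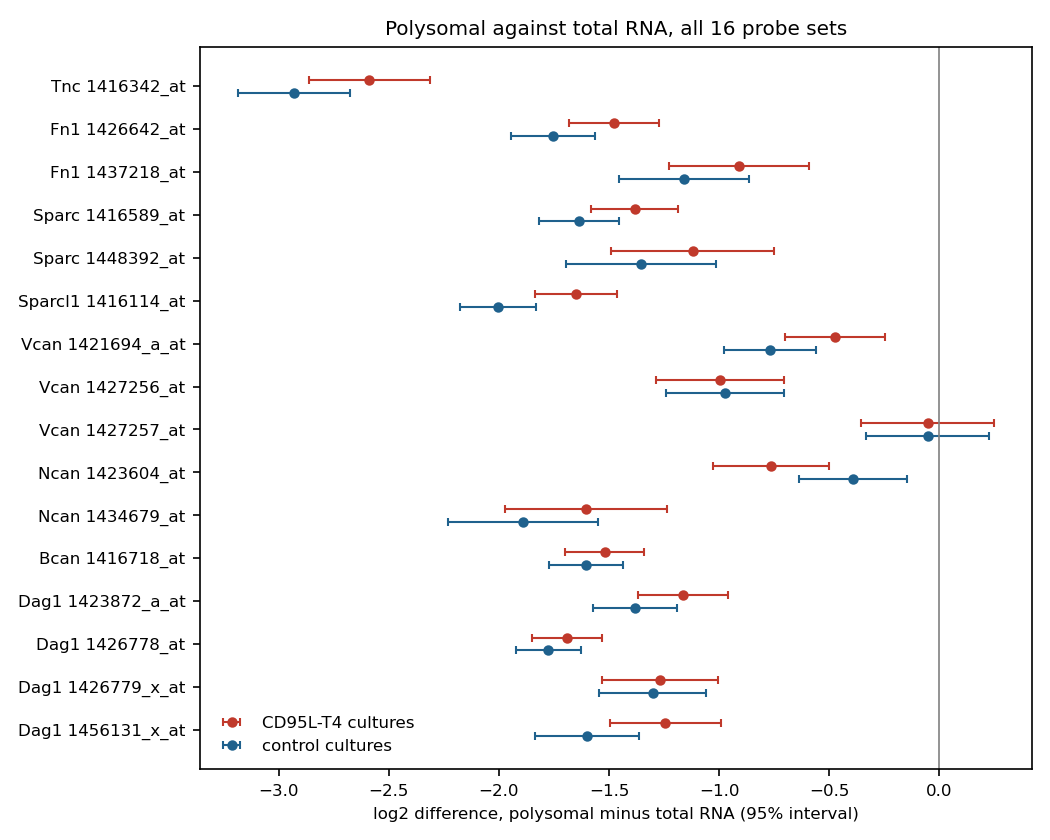
Log2 difference, polysomal minus total RNA, of all 16 probe sets in CD95L-T4 cultures (upper point of each pair) and control cultures (lower point), with 95% intervals of the limma fit. All 16 differences are below 0 in CD95L-T4 and in control cultures, from -2.59 to -0.05 and from -2.93 to -0.05. In CD95L-T4 cultures only the interval of Vcan 1427257_at includes 0. The intervals of control cultures are not read as a test, since that comparison had helped to select the genes.

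In control cultures 15 of the 16 probe sets were lower in polysomal RNA with groups that did not overlap, where 26% of all probe sets were lower and 28.6% higher in that way. limma called 26.3% of all probe sets lower and 29.8% higher in control cultures (56.1% in either direction). In CD95L-T4 cultures 15 of the 16 were also lower without overlap, where 22.8% of all probe sets were lower and 24.9% higher. The median over the 16 probe sets was -1.49 in control cultures, beside 0.06 over all probe sets. The median of the 8 brightest probe sets was -1.56 in CD95L-T4 cultures and -1.765 in control cultures. Nothing is read from the counts and medians of control cultures, since this comparison had named Tnc before. Those of CD95L-T4 cultures are not an independent test.

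Total RNA showed no change of these genes after CD95L-T4 that passed the test. limma called 0 of the 16 probe sets, where 0% of all 22626 were called and 846 (3.74%) had an unadjusted p under 0.05. The members lay between -0.175 and 0.28 in log2, CD95L-T4 minus control, with a median of -0.04 beside 0.01 over all probe sets. Tnc stood at 0.03 ± 0.12 (SE, n = 4 and 4; 95% interval -0.23 to 0.29), Fn1 (1426642_at) at -0.02 ± 0.09 and Bcan at 0.00 ± 0.08. Sparc (1416589_at) stood at -0.15 ± 0.09, Sparcl1 at -0.12 ± 0.08 and Dag1 (1426778_at) at -0.04 ± 0.07. The smallest unadjusted p, 0.0398, belonged to Vcan 1427256_at at 0.28 ± 0.13 (limma, adjusted p = 0.997), and its groups overlapped. The 95% intervals of all 16 probe sets lay within a 1.5-fold change in either direction. In 0 of the 16 probe sets did the groups part without overlap, where 1.58% of all probe sets were higher and 0.941% lower without overlap.

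On polysomes, 14 of the 16 probe sets had a higher mean in CD95L-T4 than in control cultures, where 51.4% of all probe sets did. The median log2 difference of the 16 was 0.15, beside 0.005 over all probe sets. No probe set of the whole array passed limma (0%, with 2184 or 9.65% at an unadjusted p under 0.05). Without overlap of the groups, 3 of the 16 probe sets were higher, Fn1 1426642_at and Dag1 1423872_a_at and 1456131_x_at, where 2.59% of all probe sets were higher and 2.83% lower without overlap. Nothing is read from these counts, since this comparison had named Tnc and Fn1 before. Tnc stood at 0.37 ± 0.13 (SE, n = 3 and 4), and Fn1 (1426642_at) stood at 0.26 ± 0.10. Sparcl1 stood at 0.23 ± 0.09 and Sparc at 0.10 ± 0.09 and 0.15 ± 0.17. Ncan stood at 0.27 ± 0.17 with 1434679_at and at -0.17 ± 0.12 with 1423604_at. Bcan stood at 0.085 ± 0.09 and Vcan between 0.12 and 0.26. Dag1 stood between -0.02 and 0.26, and its 4 probe sets did not share a sign.

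The arrays of CD95L-T4 polysomal RNA differed in this respect. Replicate 1 was above all control polysomal arrays with 11 of the 16 probe sets, replicate 2 with 5 and replicate 3 with 8. The median difference from the control mean was 0.21 in replicate 1, 0.07 in replicate 2 and 0.14 in replicate 3. The same arrays had positions between the fractions of 0.901, 1.03 and 0.958, so the array with the highest median was also the nearest to total RNA. The part of the position in the result was not tested. With every polysomal array scaled to the same distance from total RNA, a setting added after seeing the data, Tnc stood at 0.20, Fn1 1426642_at at 0.16, Sparcl1 at 0.11 and Sparc 1416589_at at 0.01. Under that scaling Bcan stood at -0.02 and Dag1 1426778_at at -0.08, and 12 of the 16 probe sets were above 0. Without CD95L-T4 polysomal replicate 2, all 16 were above 0, with Tnc at 0.58 ± 0.10 and Sparcl1 at 0.29 ± 0.09. Without replicate 1, 12 were above 0, with Tnc at 0.20 ± 0.12 and Sparcl1 at 0.155 ± 0.09. The share of all probe sets above 0 is not given for these settings, so nothing is read from their counts. Stem cell markers averaged 9.18 to 9.35 in CD95L-T4 polysomal arrays and 9.22 to 9.28 in control polysomal arrays, astrocyte markers (7) 6.89 to 6.99 and 6.86 to 6.99, and oligodendrocyte lineage markers (9) 7.38 to 7.47 and 7.26 to 7.40. Their part in the result was not tested.

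**Figure D3:**
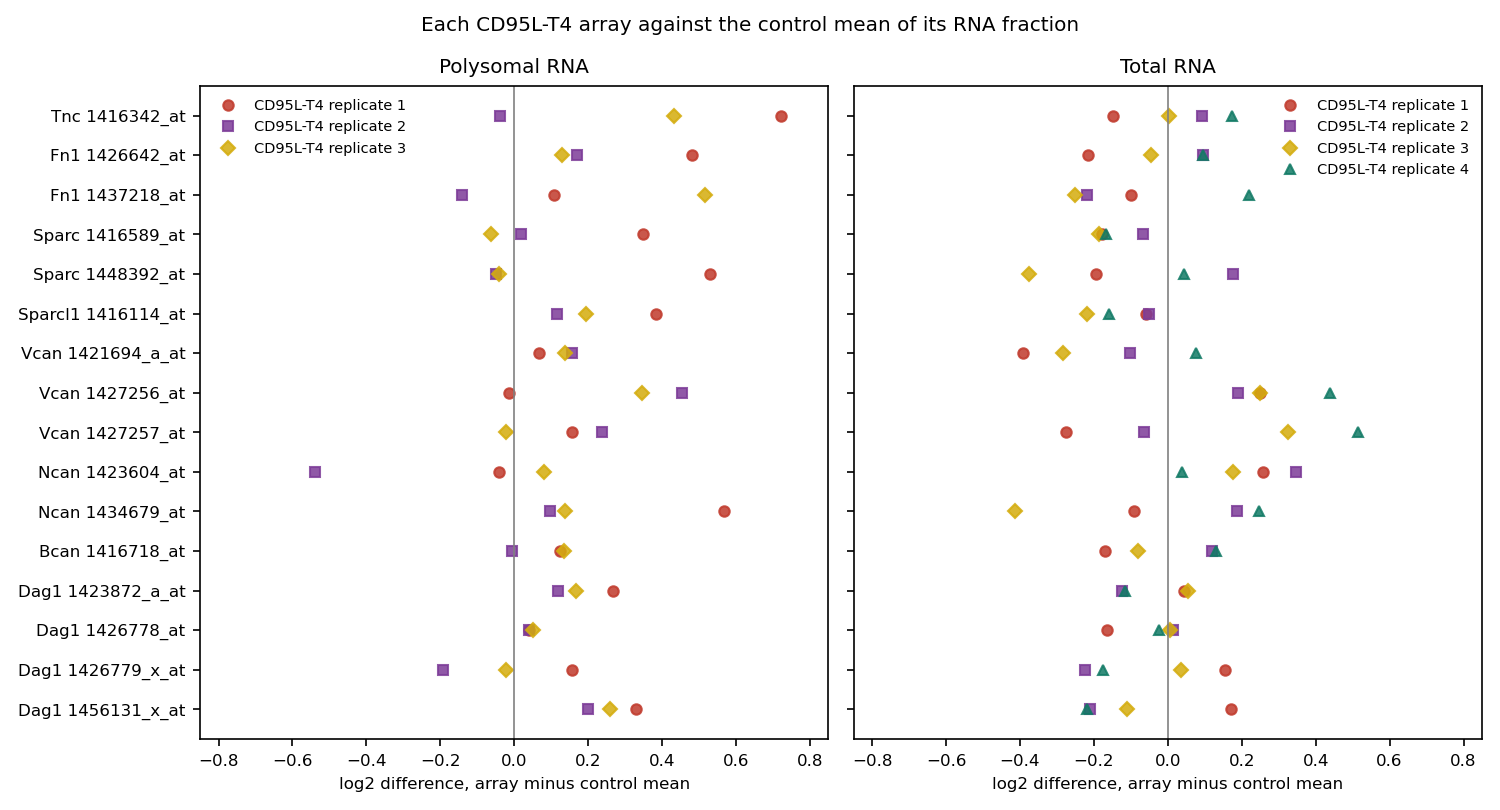
Log2 difference of each CD95L-T4 array from the control mean of the same RNA fraction for the 16 probe sets, in polysomal RNA (left, 3 arrays) and total RNA (right, 4 arrays). In polysomal RNA replicate 1 is above 0 with 14 probe sets, replicate 2 with 10 and replicate 3 with 12, and in total RNA replicates 1 to 4 with 5, 8, 7 and 10.

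The effect in polysomal RNA minus that in total RNA was above 0 for 13 of the 16 probe sets, where 47.9% of all probe sets were above 0. The median of the 16 was 0.24, beside -0.01 over all probe sets. No probe set of the array passed limma (0%, with 992 or 4.38% at an unadjusted p under 0.05). Sparcl1 stood at 0.35 ± 0.12, Tnc at 0.34 ± 0.18, Fn1 1426642_at at 0.28 ± 0.13 and Sparc 1416589_at at 0.25 ± 0.13. The Dag1 probe sets differed in size. Probe set 1456131_x_at stood at 0.36 ± 0.16 and 1423872_a_at at 0.22 ± 0.13. The brightest, 1426778_at, stood at 0.09 ± 0.10 and 1426779_x_at at 0.03 ± 0.17. Bcan stood at 0.085 ± 0.12. The 3 below 0 were Ncan 1423604_at at -0.37 ± 0.17, Vcan 1427256_at at -0.02 ± 0.19 and Vcan 1427257_at at -0.00083 ± 0.19. Under the scaling to equal distance 10 of the 16 were above 0, with a median of 0.16, Sparcl1 at 0.24 and Tnc at 0.17. The share of all probe sets above 0 is not given for this setting. Without replicate 1 the median was 0.13. This comparison shares its arrays with the ones above and adds no samples. It had named Tnc, Fn1 and Sparc before, so nothing is read from its counts and medians.

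The brightest probe sets of the 8 genes followed each other closely over the 15 arrays, with Pearson coefficients of 0.891 to 0.997 in the 28 pairs. These coefficients hold the difference between fractions that all 8 share. Once each group's mean was removed, they ran from -0.323 to 0.72 with a median of 0.40. The highest were those of Tnc with Fn1 at 0.72 and of Bcan with Dag1 at 0.708, and the lowest was that of Sparcl1 with Vcan. The points share arrays and their normalization, so the coefficients are a description.

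Over the 15 arrays the genes most like Tnc were Atp2a2, Celsr2 and Vcp, with Pearson coefficients of 0.9992, 0.9974 and 0.9973. Those most like Fn1 were Clstn1, Glg1 and Sulf2 (0.996 to 0.9946), and those most like Sparc were Spon1, Igfbp2 and App (0.9951 to 0.9945). Plat, Nrcam and Cpe were most like Sparcl1 (0.9971 to 0.9965), and Ntn1, Glg1 and Sptbn1 most like Bcan (0.9987 to 0.9967). Rrbp1, Fbln2 and Pdcd6ip were most like Ncan (0.9922 to 0.9906), and Mcm6, Ntn1 and Glud1 most like Dag1 (0.9977 to 0.9968). For Vcan the coefficients were lower, with Cdc5l at 0.9794, Incenp at 0.9686 and Plbd2 at 0.9675. These coefficients also hold the difference between fractions.

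Genes that act with the 8 were described from 6 lists, with 1 probe set per gene, in CD95L-T4 cultures. Of all 12393 genes, 21.8% were called lower and 29.6% higher in polysomal RNA, with a median of 0.07. In control cultures 23.2% were called lower and 33.5% higher. Of 10 measured integrin chains, which form receptors of matrix glycoproteins such as fibronectin, tenascin C and laminins, 5 were lower and 1 higher (median -0.25). Itgb1, the shared beta 1 chain, stood at -2.42 ± 0.17 (limma, adjusted p = 4.18e-09) and Itgav at -1.74 ± 0.09 (adjusted p = 2.99e-10), whereas Itga7 stood at 0.27 ± 0.11 (adjusted p = 0.044). Of 10 partners of lecticans and tenascins, 5 were lower and 0 higher (median -0.27). Ptprz1, a receptor phosphatase that binds tenascin C, stood at -1.83 ± 0.08 and the hyaluronan receptor Cd44 at -1.45 ± 0.08, whereas the lectican Acan stood at 0.19 ± 0.11 (limma, adjusted p = 0.151).

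Of 13 genes of the dystroglycan complex and its glycosylation, 10 were lower and 0 higher (median -0.49). The dystroglycan ligand Agrn and the glycosyltransferase B4gat1 both stood at -1.51, and the sarcoglycan Sgca at 0.20 (limma, adjusted p = 0.099). Of 13 matrix proteases and inhibitors, 9 were lower and 0 higher (median -0.48), with the sheddases Adam10 at -1.44 and Adam17 at -1.27 and the gelatinase Mmp9 at 0.14 (limma, adjusted p = 0.441). Of 12 genes of chondroitin sulfate synthesis, 7 were lower and 0 higher (median -0.36), with the sulfotransferases Chst11 at -1.30 and Chst7 at -1.24 and Csgalnact2 at 0.35 (limma, adjusted p = 0.0588). Other matrix glycoproteins and SPARC relatives differed among themselves: of 23, 6 were lower and 2 higher (median -0.01). Several of these probe sets were dim, such as Spock3, Lum and Smoc2 with means of 2.59, 3.285 and 3.33 in CD95L-T4 total arrays. A dim probe set can show little difference. Among the brighter ones Hspg2, with a mean of 8.65 there, stood at 0.13 (limma, adjusted p = 0.416). Fbln2 stood at -1.57 and the SPARC relative Smoc1 at -1.07, whereas the matricellular Ccn1 was higher at 0.61 ± 0.12 (limma, adjusted p = 0.000438). After CD95L-T4, 0 genes of these lists were called in total or in polysomal RNA, where 0% of all 12393 genes were called in either, so the count says nothing particular to the lists.

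**Figure D4:**
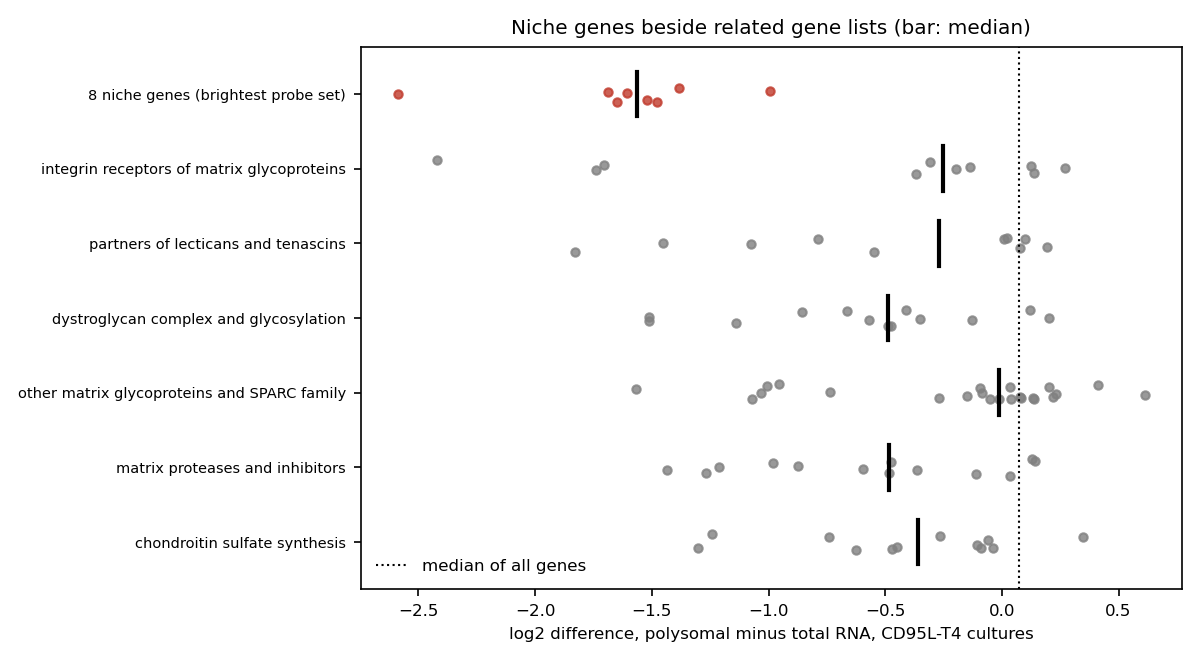
Log2 difference, polysomal minus total RNA, in CD95L-T4 cultures for the brightest probe set of each of the 8 genes (top row) and for the measured genes of 6 related lists (1 point per gene). Bars are list medians, -1.56 for the 8 genes and -0.49 to -0.01 for the lists, and the dotted line is the median of all genes at 0.07. Some list genes lie in the range of the 8, such as Itgb1 at -2.42 and Ptprz1 at -1.83. The lists also hold dim probe sets, such as that of Hapln1 with a mean of 3.16 in CD95L-T4 total arrays.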

How the data were processed

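The 15 arrays held biotin-labelled RNA. The authors deposited 1 table of log2 values normalised between arrays; the normalization method is not given in the sources used here. Per the labels' protocols, phenol and chloroform were used for polysomal RNA and a mirVana kit for total RNA. Of 22690 probe sets, 64 Affymetrix controls were left out. Gene names came from the platform annotation, with current symbols by gene identifier from the RefSeq table of GRCm38.p6 (12369 of 12393 genes).

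Log2 values were fitted in limma 3.58.1 (R 4.3.3) with a mean for each of the 4 groups, all 15 arrays sharing 1 moderated variance per probe set. Two-sided p-values, adjusted with the Benjamini-Hochberg method, covered 22626 probe sets, with a threshold of 0.05. Errors of differences are moderated standard errors. Steps were tested on simulated data. Arrays carry no read depth, so their number limits the precision.

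The members and lists were chosen with earlier results of these data known. Per list, the 2 lowest and the highest difference between fractions in CD95L-T4 cultures are named, and per member the 3 genes of highest correlation. Alternatives were scalings, filters on dim probe sets, variance models, array weights, replicate blocks and leaving out each array.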

Additional observations from a re-analysis of the deposited data

Results flagged for a closer look

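In 48 groups of 4 arrays (16 probe sets, 3 groups), 3 arrays lay far from the other three of their group by Dixon's criterion, and chance alone flags about 1 group in 20. Sparc 1416589_at was 9.24 in CD95L-T4 total replicate 2, against 9.12 to 9.14 in the other arrays. Sparc 1448392_at was 8.78 in control total replicate 1, against 8.08 to 8.15 in the others; without that array its CD95L-T4 effect in total RNA was 0.08 in place of -0.09. Ncan 1423604_at was 5.13 in control polysomal replicate 3, against 4.79 to 4.82 in the others.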

How the results depend on the processing

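In 24 to 26 alternatives per comparison, the fraction differences of 15 probe sets kept their sign wherever the probe set was retained, as did their calls in CD95L-T4 cultures; only Vcan 1427257_at turned above 0, in 4 of 24 alternatives in CD95L-T4 cultures and 2 of 24 in control cultures. The median over the 16 probe sets in CD95L-T4 and in control cultures was -1.17 and -1.40 with equal array medians, -1.38 and -1.605 without the dimmest 25% of probe sets and -1.48 and -1.635 without the dimmest 50%, where fewer members remain. On leaving out 1 array it ran from -1.335 to -1.18 in CD95L-T4 cultures and from -1.53 to -1.44 in control cultures. For CD95L-T4 on polysomes, leaving out 1 array gave 0 to 1386 called probe sets and 0 to 1 members past the same threshold, from which nothing is read because this comparison had helped to select the genes. The highest counts came without CD95L-T4 polysomal replicate 2; the cause was not tested. Over all alternatives Tnc lay between 0.20 and 0.58 in log2. For the difference between the effects, leaving out 1 array gave 0 to 2 called probe sets and a median of 0.13 to 0.285, and equal separation of the fractions gave 0.16. Nothing is read from these values either, since that comparison had also helped to select the genes. In total RNA 0 probe sets were called in all 25 alternatives. The replicate numbers were not taken to pair arrays, because same-numbered arrays are not stated to share a culture. Same-numbered arrays also did not deviate together (correlations of deviations from group means from -0.234 to 0.197). With the replicate number as a block over all arrays, 15 member probe sets were called in the fraction comparison of CD95L-T4 cultures, where 11597 of all 22626 were called, and 0 in the total RNA comparison; the block changed neither count. The members' medians with that block were -1.25 and -1.49 between fractions in CD95L-T4 and in control cultures and 0.17 for CD95L-T4 on polysomes. The number of arrays and the dimness of 5 member probe sets, among the dimmest 50%, limit what small differences can show.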

Other observations

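Of the 9 measured stem cell markers, 3 were higher and 3 lower in polysomal than in total RNA of CD95L-T4 cultures, where 29.6% of all genes were higher and 21.8% lower, so the counts say nothing particular to the markers. The RNA-binding protein gene Msi1 stood at 0.66 ± 0.11 (limma, adjusted p = 9.11e-05) and the Notch effector Hes1 at 0.52 ± 0.07 (limma, adjusted p = 1.04e-05). The membrane protein genes Slc1a3, a glutamate transporter, and Egfr, a growth factor receptor, stood at -1.22 ± 0.08 (limma, adjusted p = 3.03e-09) and -0.91 ± 0.07 (limma, adjusted p = 2.12e-08). Pax6 was also higher at 0.30 ± 0.07 (limma, adjusted p = 0.0025), and Nes was also lower at -0.48 ± 0.15 (limma, adjusted p = 0.00987). These are all the called markers of the list, named after their values were seen.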
